A study of Mus musculus with 2 samples.

Results

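The neurotransmitter a neuron releases is set by a small number of genes, and 10 of them, Gad1, Gad2, Slc32a1, Slc17a6, Slc17a7, Slc17a8, Th, Slc18a3, Chat and Tph2, were followed here by gene symbol among the 45777 genes of the deposited mm10 expression table. All 10 symbols were found, each on 1 row. RNA-seq was available for 1 teratoma library grown from E14, a mouse embryonic stem cell (ESC) line, and 1 grown from E14-Sox2TA/WT cells, in which CRISPR-Cas9 editing replaced threonine 258 of Sox2 with alanine (T258A) on 1 allele while the other allele stayed wild type. The tumour of the edited cells is called the mutant teratoma below. The cells of both groups were injected under the skin of BALB/c-nu mice, 3 mice per group, and the teratomas were harvested after 14 days. Edited cells came from colonies grown from single sorted cells, and the sources used here do not state how many clones or teratomas went into the library. With 1 library per group no difference has a replicate check, so no p-value is given, and the 95% Clopper-Pearson intervals below cover counting error of reads between these 2 libraries, not the spread between tumours.

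A transmitter phenotype combines an enzyme that makes the transmitter, a transporter that loads it into synaptic vesicles, and often a transporter that takes it back up after release. GABA, the main inhibitory transmitter of the forebrain, is made from glutamate by the decarboxylases encoded by Gad1 and Gad2 and is loaded by the vesicular transporter encoded by Slc32a1. Glutamate is present in every cell, so the vesicular transporters of the Slc17a family, rather than an enzyme, mark neurons that release it. Th encodes tyrosine hydroxylase, the first step of dopamine, noradrenaline and adrenaline synthesis. Chat makes acetylcholine and Slc18a3 loads it, and Tph2 carries out the first step of serotonin synthesis in neurons.

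Gene-level reads numbered 50529171 for E14 and 49030281 for E14-Sox2TA/WT, of which 12480 and 2485 fell on the 10 genes. TPM, a read-based level that is divided by transcript length and rescaled to a fixed sum in each library, was used to compare levels between genes and libraries. Where either library reached a TPM of 10, the middle gene had a log2 ratio, after adding 1, of -0.18 by TPM but 0.01 by FPKM, the same measure without the fixed sum, so ratios on TPM stand 0.871 times those on FPKM. Both samples carry teratoma as their tissue label, whereas the extraction protocol given with them speaks of an ESC line. Markers of ectoderm, mesoderm and endoderm were present in both libraries except Cdx2, an endoderm marker with 0 reads in the E14 teratoma. E14 is a male line, and the reads on 4 genes of the Y chromosome summed to 5453 in its teratoma and to 0 in the mutant teratoma, which allows up to 3 reads there, so this library stood apart from its parental line in a way the genotype label does not give. Sox2 had a TPM of 246 and 130, and reads were not split by allele.

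The GABA genes were the most abundant of the 10 in the E14 teratoma and fell by the largest folds in the mutant teratoma. Gad1 had 3659 reads (TPM 45.4) in E14 and 314 reads (TPM 3.57) in the mutant teratoma. It was 12.7-fold lower (11.3 to 14.3). Both decarboxylases moved in the same direction. Gad2, whose product is the decarboxylase attached to synaptic vesicles, went from 3177 reads and a TPM of 23.5 to 346 reads and a TPM of 2.28, 10.3-fold lower (9.22 to 11.6). Slc32a1, the vesicular GABA transporter, went from 1907 reads and a TPM of 24.95 to 115 reads and a TPM of 1.37, 18.2-fold lower (15.1 to 22.2). The transporter thus fell by more than either enzyme, and its interval did not overlap theirs. The TPM of Gad1 was 1.93 times that of Gad2 in the E14 teratoma and 1.56 times in the mutant teratoma. All 3 genes lie on chromosome 2, Gad2 at 22621015 to 22693877, Gad1 at 70561303 to 70602014 and Slc32a1 at 158607260 to 158615747 of GRCm38, and the 929 genes of this chromosome that reached a TPM of 10 had a median of -0.06 on the log2 scale after the median of all genes was subtracted. In bulk RNA from a tumour, fewer cells of a type and less RNA per cell cannot be told apart.

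The promoter windows of the 3 GABA genes are shown because these genes fell together by the largest folds. They come from RefSeq on GRCm38.p6 and run from 250 bases before to 50 bases after an annotated start, written 5′ to 3′ on the gene's strand. For these 3 genes the windows lie inside the gene spans given above, so their starts are downstream of the first base of each span. Capitals mark 4 motifs searched on both strands: ACAAAG and ACAATG, core sites of the Sox family of factors to which Sox2 belongs, TAATTA, a site of many homeodomain factors such as the Dlx family, and CAGCTG, an E-box bound by proneural factors. The last 2 read the same on either strand, and no match overlapped another in the windows printed here.
Gad1, chr2:70561879-70562178, plus strand: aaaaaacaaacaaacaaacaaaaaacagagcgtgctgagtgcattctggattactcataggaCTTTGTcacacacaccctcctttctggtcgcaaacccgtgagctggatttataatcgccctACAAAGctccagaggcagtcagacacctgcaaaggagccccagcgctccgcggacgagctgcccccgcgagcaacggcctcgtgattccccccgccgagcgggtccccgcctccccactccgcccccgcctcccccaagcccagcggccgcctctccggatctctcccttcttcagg
Gad2, chr2:22622077-22622376, plus strand: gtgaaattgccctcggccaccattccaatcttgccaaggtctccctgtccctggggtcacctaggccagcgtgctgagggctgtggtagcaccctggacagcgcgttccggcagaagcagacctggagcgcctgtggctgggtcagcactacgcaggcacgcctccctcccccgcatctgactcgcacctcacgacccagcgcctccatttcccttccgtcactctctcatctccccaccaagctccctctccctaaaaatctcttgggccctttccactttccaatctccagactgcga
Slc32a1, chr2:158610508-158610807, plus strand: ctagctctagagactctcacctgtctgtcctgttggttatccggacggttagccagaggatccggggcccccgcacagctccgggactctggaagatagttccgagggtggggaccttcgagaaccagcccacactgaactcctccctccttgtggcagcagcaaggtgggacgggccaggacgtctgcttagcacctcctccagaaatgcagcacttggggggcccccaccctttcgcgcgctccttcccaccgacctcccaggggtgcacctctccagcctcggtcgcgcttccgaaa
Gad1 holds a Sox-type core on each strand, beginning 188 and 127 bases before the start. The windows of Gad2 and Slc32a1 hold none of the 4 motifs, which says only that these letters are absent from 300 bases. Of 32851 such windows of all genes, 28.6% hold a Sox-type core, 5.29% hold TAATTA and 16.3% hold CAGCTG. Of the 12 windows of the 10 genes, 2 hold a Sox-type core, 2 hold TAATTA and 2 hold CAGCTG. These matches describe the sequence and are not measured binding sites.

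The vesicular glutamate transporters, of which Slc17a6 and Slc17a7 lie on chromosome 7 and Slc17a8 on chromosome 10, were split. Slc17a6, which encodes VGLUT2, the form of the thalamus, midbrain and hindbrain and of much of the developing brain, had 1757 reads and a TPM of 17.1 in the E14 teratoma. In the mutant teratoma it had 584 reads and a TPM of 5.03, 3.40-fold lower (3.10 to 3.74). Slc17a8, which encodes VGLUT3, a form found in scattered neurons of other transmitter types and in inner hair cells, went from 862 reads and a TPM of 8.04 to 349 reads and a TPM of 2.91, 2.76-fold lower (2.43 to 3.13). It did not reach a TPM of 10 in either library. Slc17a7, which encodes VGLUT1, the main form of the mature cerebral cortex and hippocampus, was near absent from the E14 teratoma. It had 13 reads and a TPM of 0.170 there and 75 reads and a TPM of 0.937 in the mutant teratoma, 5.50-fold higher (3.03 to 10.8). At such levels a higher value in the mutant teratoma was common. Of the 10590 genes with at least 1 read and a TPM under 1 in both libraries, 52.6% were more than 2-fold higher and 23.7% more than 2-fold lower there. Rods and cones also use VGLUT1, and of 6 photoreceptor markers 5 had 0 reads in the E14 teratoma and 2 in the mutant teratoma, with a summed TPM of 0.255 and 0.558.

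Slc17a6 has a pair of annotated starts, and both windows are shown because it is the transporter with the highest TPM among the 3 in each library and the most abundant of the glutamate and GABA genes in the mutant teratoma.
Slc17a6, upstream start, chr7:51621580-51621879, plus strand: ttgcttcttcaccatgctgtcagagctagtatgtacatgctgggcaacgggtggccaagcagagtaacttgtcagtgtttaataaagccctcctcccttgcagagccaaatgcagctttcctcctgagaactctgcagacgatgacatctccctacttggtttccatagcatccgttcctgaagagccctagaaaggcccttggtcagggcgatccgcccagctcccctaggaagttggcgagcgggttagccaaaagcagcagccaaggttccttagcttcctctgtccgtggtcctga
Slc17a6, downstream start, chr7:51624387-51624686, plus strand: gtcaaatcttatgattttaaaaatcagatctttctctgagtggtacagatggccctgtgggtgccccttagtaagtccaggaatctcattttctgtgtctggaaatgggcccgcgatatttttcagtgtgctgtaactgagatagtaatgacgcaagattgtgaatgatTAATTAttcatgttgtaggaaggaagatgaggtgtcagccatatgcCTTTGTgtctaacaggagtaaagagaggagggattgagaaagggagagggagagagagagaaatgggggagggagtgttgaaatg
The upstream window holds none of the 4 motifs. The downstream window holds TAATTA, beginning 81 bases before the start, and CTTTGT, the reverse complement of ACAAAG, 35 bases before it. The gene table sums over transcripts, so the files do not say which start was used.

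**Figure D1:**
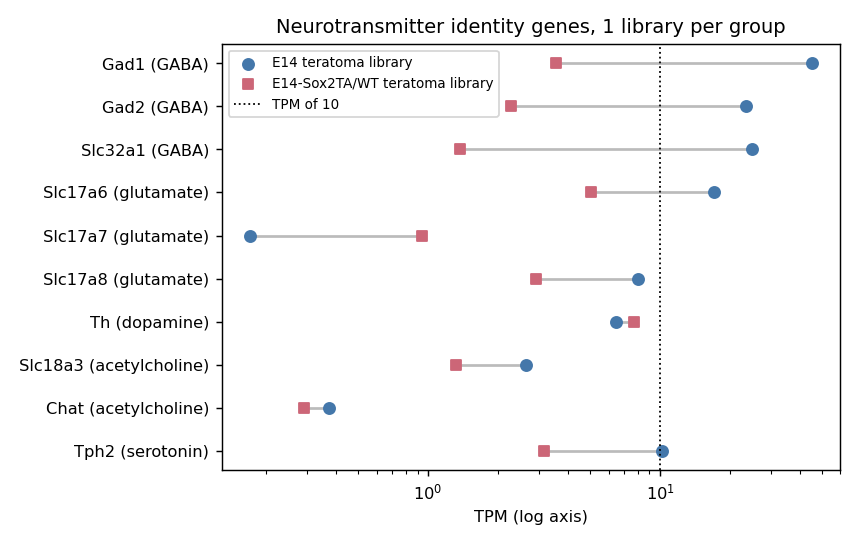
TPM of the 10 neurotransmitter identity genes on a log axis, with circles for the E14 and squares for the E14-Sox2TA/WT teratoma library, 1 library per group, joined by a grey line for each gene. The 3 GABA genes lie between 23.5 and 45.4 in the E14 library and between 1.37 and 3.57 in the other, and no gene reaches the dotted line at a TPM of 10 in the E14-Sox2TA/WT library.

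The balance of inhibitory to excitatory genes within each library differed between the tumours. The summed TPM of Gad1, Gad2 and Slc32a1 was 93.8 in the E14 teratoma and 7.22 in the mutant teratoma, 13.0-fold lower. The summed TPM of Slc17a6, Slc17a7 and Slc17a8 was 25.3 and 8.88, 2.85-fold lower. The GABA sum was therefore 3.71 times the glutamate sum in the E14 teratoma and 0.813 times in the mutant teratoma, a comparison within a library that does not depend on how the libraries are scaled to each other. In reads, GABA genes held 76.9% of the reads on these 6 genes in the E14 teratoma (76.1% to 77.6%) and 43.5% in the mutant teratoma (41.1% to 45.8%). The vesicular transporters alone, which play the same role in both systems, were near parity in the E14 teratoma and shifted in the same direction. Slc32a1 stood at 0.986 times the summed TPM of the Slc17a genes in the E14 teratoma and at 0.155 times in the mutant teratoma, and held 42.0% (40.6% to 43.5%) and 10.2% (8.53% to 12.2%) of the reads on the 4 transporters. Among the glutamate transporters, Slc17a6 made up 67.5% of the summed TPM in the E14 teratoma and 56.6% in the mutant teratoma. The share of Slc17a8 was 31.8% and 32.8%, and that of Slc17a7 was 0.673% and 10.6%.

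**Figure D2:**
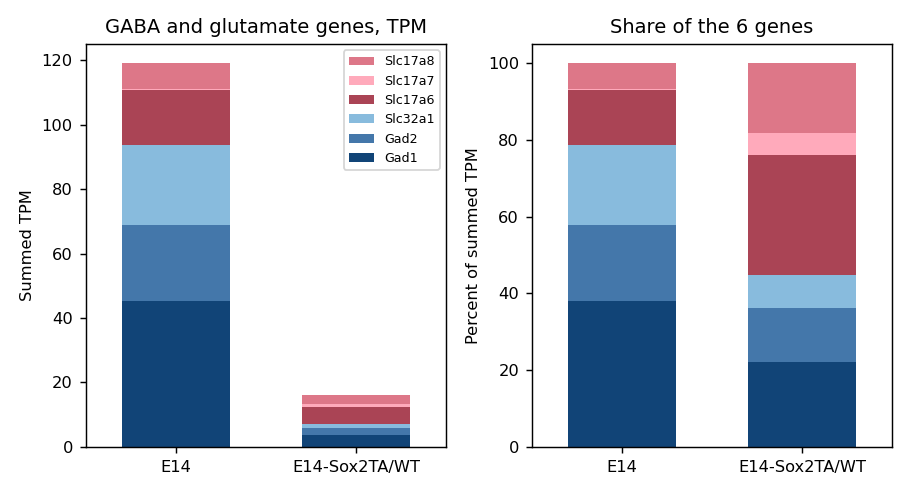
Summed TPM (left) and percent of the summed TPM (right) of Gad1, Gad2 and Slc32a1 (blue) and of Slc17a6, Slc17a7 and Slc17a8 (red) in the E14 and the E14-Sox2TA/WT teratoma libraries, 1 library per bar. The blue part adds up to a TPM of 93.8 and 7.22 and the red part to 25.3 and 8.88, so blue is the larger part on the left bar and the smaller part on the right bar of each panel.

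Th did not follow the GABA and glutamate genes. It had 278 reads and a TPM of 6.47 in the E14 teratoma and 372 reads and a TPM of 7.76 in the mutant teratoma, a ratio of 1.20 (1.02 to 1.41) that does not reach 2-fold. On FPKM the ratio was 1.38. Th ranked 7 of the 10 genes by TPM in the E14 teratoma and 1 in the mutant teratoma. Its share of the summed TPM of the 10 genes was 4.66% and 27.1%. The gene lies on chromosome 7 from 142892779 to 142899995, and its window is shown as that of the most abundant of the 10 in the mutant teratoma.
Th, chr7:142899946-142900245, minus strand: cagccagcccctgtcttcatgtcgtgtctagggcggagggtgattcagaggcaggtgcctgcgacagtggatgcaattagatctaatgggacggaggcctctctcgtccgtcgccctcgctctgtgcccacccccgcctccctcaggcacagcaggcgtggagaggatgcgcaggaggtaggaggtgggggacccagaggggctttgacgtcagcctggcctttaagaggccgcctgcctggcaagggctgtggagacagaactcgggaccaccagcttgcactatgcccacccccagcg
This window holds none of the 4 motifs. Th marks sympathetic neurons and adrenal chromaffin cells as well as dopamine neurons of the brain. Of 8 sympathoadrenal markers, 6 reached a TPM of 1 in either library, 4 of them higher and 2 lower in the mutant teratoma. Their summed TPM was 232 and 65.5, most of it from the secretory granule genes Chga and Chgb, which fell, and 8.25 and 19.0 without them. Dbh and Pnmt, the noradrenaline and adrenaline enzymes, had 0 reads in the E14 teratoma and 28 and 9 in the mutant teratoma. The part of these cells in the value of Th was not tested.

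The serotonin gene Tph2 fell to a degree similar to Slc17a6, with overlapping intervals. It had 646 reads and a TPM of 10.2 in the E14 teratoma and 222 reads and a TPM of 3.14 in the mutant teratoma, 3.25-fold lower (2.78 to 3.798). It lies on chromosome 10 from 115078641 to 115185022, and its window holds a CAGCTG 44 bases past the start.

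The acetylcholine genes had the lowest summed TPM of the 5 transmitter systems in both libraries, 3.03 and 1.61. Slc18a3 had 155 reads and a TPM of 2.65 in the E14 teratoma and 86 reads and a TPM of 1.32 in the mutant teratoma, 2.02-fold lower (1.54 to 2.66). The fold passed 2 on TPM only and was 1.76 on FPKM, 1.75 with reads scaled by library total, 1.91 with TMM factors and 1.90 with median-of-ratios factors. Chat had 26 and 22 reads and a TPM of 0.373 and 0.291, and its interval, from a ratio of 0.422 to 1.43, includes 1. Slc18a3 is nested in Chat on the minus strand of chromosome 14, from 32462437 to 32464850 within 32408203 to 32465909. In the GENCODE M21 annotation it lies in intron 1 of the full-length transcript of Chat, which has 16 exons, and shares 0 exon bases with it. Whether reads from this intron of Chat were counted for Slc18a3 was not tested. Slc18a3 exceeded Chat in TPM in both libraries. Tuft cells of the gut can also use Chat. Of 5 tuft cell markers, 4 reached a TPM of 1 in either library, 2 of them lower and 2 higher in the mutant teratoma, and Gfi1b had 0 reads in the E14 teratoma. The summed TPM was 72.4 and 24.4, almost all from Dclk1, a gene that neurons also express, and 1.999 and 4.67 without it. Their part in the values was not tested.

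**Figure D3:**
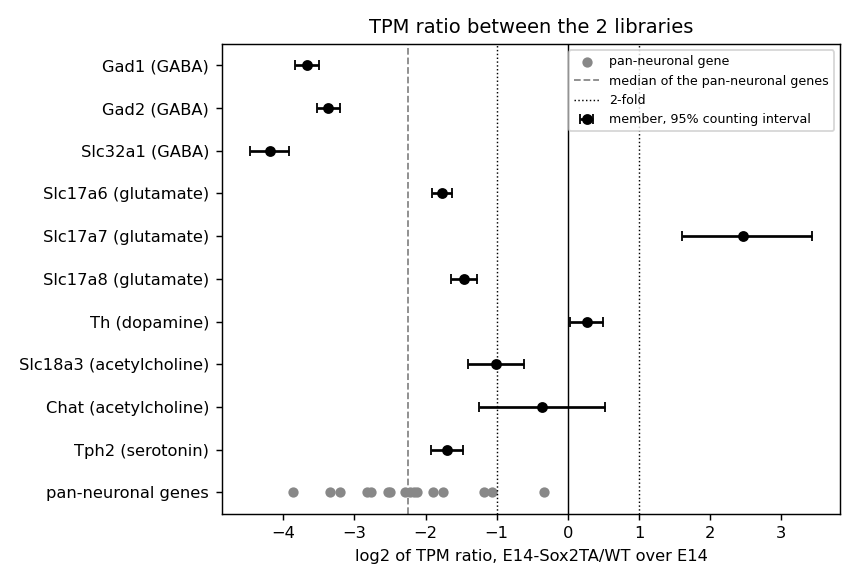
Log2 of the TPM ratio of the E14-Sox2TA/WT over the E14 teratoma library for each of the 10 genes, with 95% counting intervals (bars), and for the 16 pan-neuronal genes (grey points on the bottom row), 1 library per group. The 3 GABA genes lie left of the dashed median of the pan-neuronal genes at -2.25, the other 7 lie right of it, and Th and Slc17a7 are the 2 genes right of 0.

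A gene was called when its TPM differed by more than 2-fold and reached 10 in either library. These limits are the study's, but the sources used here do not state on which scale the study took the fold. By this rule 5 of the 10 were lower, namely Gad1, Gad2, Slc32a1, Slc17a6 and Tph2, and 0 were higher. For these 5 the whole counting interval also lay beyond 2-fold. Of all 11578 genes that met the TPM limit, 18.7% were lower and 10.8% higher by the same rule. The other 5 genes had a TPM under 10 in both libraries and could not be called. All 5 that met the limit met it through the E14 teratoma alone, since none of the 10 had a TPM of 10 in the mutant teratoma, so that their share is no support for a direction. Among all genes with a TPM of 10 or more in the E14 teratoma, 20.7% were lower. Tph2 met the limit narrowly, at 10.2, and Slc17a8 missed it, at 8.04. With a limit of 1, which 8 of the 10 met, 7 were more than 2-fold lower and 0 more than 2-fold higher, against 18.9% and 19.3% of all 18558 genes at that limit. The 7 include Slc18a3, which passed 2-fold on TPM and on no other scaling. On the log2 scale, after adding 1 to TPM, the median of the 8 was -1.51, and that of the 18558 genes was -0.06.

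The order of the genes changed between the libraries. In the E14 teratoma the levels ran from Gad1 through Slc32a1, Gad2, Slc17a6, Tph2, Slc17a8, Th, Slc18a3 and Chat to Slc17a7. Neighbours in this order differed beyond their Poisson counting intervals except Slc32a1 and Gad2, and Chat and Slc17a7. In the mutant teratoma the order was Th, Slc17a6, Gad1, Tph2, Slc17a8, Gad2, Slc32a1, Slc18a3, Slc17a7 and Chat. There, Gad1 and Tph2, Tph2 and Slc17a8, Slc32a1 and Slc18a3, and Slc18a3 and Slc17a7 overlapped. The levels also spanned a narrower range, from 0.291 to 7.76 against 0.170 to 45.4, and the summed TPM of the 10 genes was 139 in the E14 teratoma and 28.6 in the other. GABA genes made up 67.6% of that sum in the E14 teratoma and 25.2% in the mutant teratoma.

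Neuronal RNA as a whole was lower in the mutant teratoma, so the 10 genes were also set against 16 pan-neuronal genes, which neurons express whatever their transmitter. Of these, 15 were lower by the 2-fold rule and 0 higher, against 18.7% and 10.8% of all genes at the TPM limit. Of the 15, 3 met the limit through the E14 teratoma alone, so the calls of these 3 are no support for a direction. On FPKM and with library totals 13 were lower, and with TMM or median-of-ratios factors 14. Their median was -2.21 on the log2 scale, with values running from -3.79 for Mapt to -0.32 for Nefm. Relative to that median, on the scale with 1 added to each TPM, Gad1 stood at -1.14, Gad2 at -0.70 and Slc32a1 at -1.25. The GABA genes thus lay below the neuronal median, with 1 pan-neuronal gene lower than Gad1 and Slc32a1 and 3 lower than Gad2. Without the added 1, which compresses low levels, the log2 ratio of Slc32a1 was -4.19, below all 16 pan-neuronal genes, of which Mapt was the lowest at -3.86, and 1 of them was lower than Gad1 and Gad2. Slc17a6 stood at 0.62, Tph2 at 0.77 and Slc17a8 at 0.998 above the neuronal median, with 3 pan-neuronal genes higher than each of them. The low-level genes stood further above it, Slc18a3 at 1.55 and Chat at 2.12, values that the added 1 compresses. Th stood at 2.44 and Slc17a7 at 2.93, and both lay above all 16 pan-neuronal genes with or without the added 1, whereas Chat did so only with it. Without the added 1, a shift of library scaling moves the genes and the neuronal median alike. With it, genes of low TPM move less than abundant ones, so their positions depend in part on the scaling.

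Both uptake and breakdown genes of the GABA pathway fell. Of 6 further genes, 3 had a TPM of at least 10 and all 3 were lower. Slc6a11, the GABA transporter GAT3 of astrocytes, went from a TPM of 135 to 10.7, 12.6-fold lower (11.9 to 13.4). Abat, the transaminase that breaks GABA down, went from 72.7 to 19.4, 3.75-fold lower (3.58 to 3.93). The fold of Slc6a11 was near that of Gad1 with overlapping intervals. Aldh5a1, the next enzyme of breakdown, had a TPM of 9.52 and 9.62, and Slc6a13, a GABA transporter found outside the brain as well, had 5.04 and 7.33. Slc6a12, a betaine and GABA transporter, had 0 reads in the E14 teratoma and 46 in the other, at least 15.8-fold higher in reads scaled by library total. Of 7 astrocyte markers, all at a TPM of at least 10, 3 fell and 0 rose by the 2-fold rule, against 18.7% and 10.8% of all genes. The 3 were Aldh1l1 and the glutamate transporters Slc1a3 and Slc1a2, of which Slc1a2 met the TPM limit through the E14 teratoma alone. The summed TPM of the 7 was 658 and 370, of which Slc1a3 held 262 and 76.5. Gja1 went the other way, from 124 to 166, and was not called. Gfap, the astrocyte filament gene, went from 137 to 76.4. The 6 islet markers, which mark another cell type that can make GABA, had a summed TPM of 1.43 and 7.02, with Ins1 and Ins2 at 0 reads in both libraries.

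Among 9 glutamate pathway genes, 7 reached a TPM of 10, 3 of the 4 uptake transporters fell and no enzyme was called. Of all genes at that limit, 18.7% were lower and 10.8% higher. Slc1a3, the glial transporter GLAST, went from a TPM of 262 to 76.5, 3.42-fold lower (3.34 to 3.50). Slc1a2, the glial transporter GLT-1, went from 23.4 to 4.32, 5.42-fold lower (5.10 to 5.75), and Slc1a1, a neuronal transporter, from 15.9 to 4.91, 3.23-fold lower (2.92 to 3.59). Slc1a2 and Slc1a1 met the limit through the E14 teratoma alone, so their calls are no support for a direction. Slc1a6, a transporter of cerebellar neurons, had 4.18 and 1.24 and did not reach a TPM of 10. No gene of the list was higher by the rule on TPM, but Slc38a2, a glutamine carrier with a TPM of 79.5 and 152, had a ratio of 1.91 on TPM, 2.19 on FPKM, 2.1996 with library totals, 2.01 with TMM factors and 2.02 with median-of-ratios factors, and so was called under each other scaling. Glul, which makes glutamine in astrocytes and many other tissues, had 217 and 190. Gls2, a glutaminase, went from a TPM of 0.882 to 6.14, a ratio of 6.96 (5.22 to 9.46) under the TPM limit. The median log2 ratio of the list was -0.19, and it turned to 0.01 on FPKM and with library totals.

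The catecholamine genes beside Th were not called either. Of 14 genes, 0 passed the rule in either direction, with 7 at a TPM of at least 10. Among all genes at that limit, 18.7% were lower and 10.8% higher, and 0 of 7 was not tested against these shares. The median log2 ratio of the 11 with a TPM of at least 1 was 0.65. Ddc, the decarboxylase shared by dopamine and serotonin synthesis, had a TPM of 33.7 and 57.4, a ratio of 1.70 (1.60 to 1.81). It is also expressed in gut and kidney epithelium. Slc18a2, the vesicular monoamine transporter of neurons, had 9.56 and 12.2, a ratio of 1.27 (1.17 to 1.39). Slc6a3, the dopamine transporter, rested on 46 and 247 reads, with a TPM of 0.547 and 2.35, and Slc18a1, the vesicular transporter of chromaffin and enterochromaffin cells, on 37 and 203 reads, with 0.485 and 2.42. Pts and Spr, enzymes of the cofactor that Th and Tph2 need, had a TPM of 19.4 and 35.0, and of 47.6 and 60.3. Pts passed 2-fold on FPKM, at 2.07, and with library totals, at 2.01, but not on TPM, at 1.81, so the count of 0 higher depends on the scaling. Qdpr, which recycles that cofactor, had 110 and 80.0, and Maob, which breaks monoamines down, 1.19 and 3.86. Of 5 dopamine receptors none reached a TPM of 10, and Drd1, the most abundant of them, had 2.001 and 2.42.

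The serotonin system was mixed. Slc6a4, the serotonin reuptake transporter, fell with Tph2, from a TPM of 11.7 to 2.74, 4.27-fold lower (3.65 to 5.003). It was the only one of 6 serotonin pathway genes called, and 4 had a TPM of at least 10. Of all genes at that limit, 18.7% were lower and 10.8% higher. Slc6a4 met the limit through the E14 teratoma alone, so its call is no support for a direction. Tph1, the tryptophan hydroxylase of enterochromaffin and mast cells, had 86 reads and a TPM of 0.825 in the E14 teratoma and 288 reads and a TPM of 2.56 in the other, a ratio of 3.10 (2.43 to 3.99). Tph2 exceeded Tph1 in TPM in both libraries, by a wide margin in the E14 teratoma and by 3.14 to 2.56 in the mutant teratoma. Of 8 mast cell markers, 6 had 0 reads in the E14 teratoma and 0 had none in the mutant teratoma, where Cma1 had 89 reads and Tpsb2 88. The list's summed TPM was 41.9 and 53.6, most of it from Kit and Hdc, which other cells use as well. Of 8 enteroendocrine markers, 3 reached a TPM of 10, and 2 were lower and 1 higher by the rule, against 18.7% and 10.8% of all genes. The summed TPM of the 8 was 240 and 79.5. The lower pair was again Chga and Chgb, which neurons also express, and without them the sum was 16.5 and 33.0. Sct, the secretin gene, was the higher one and went from 7 to 277 reads. It met the TPM limit through the mutant teratoma alone, so its call is no support for a direction. The part of mast and enteroendocrine cells in the value of Tph1 was not tested. None of 12 serotonin receptors reached a TPM of 10. Htr7 went from 3.30 to 0.293 and Htr3a, a ligand-gated channel, from 3.98 to 8.09.

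Of 5 further acetylcholine pathway genes, 1 reached a TPM of 10. This was Ache, acetylcholinesterase, which went from 16.0 to 4.32, 3.72-fold lower (3.24 to 4.27). It reached that limit in the E14 teratoma alone, so its call is no support for a direction. Of all genes at the limit, 18.7% were lower. Slc5a7, the choline transporter of cholinergic neurons, had 149 and 139 reads and a TPM of 1.19 and 0.994, so that like Chat it showed no difference beyond counting error, with a ratio of 0.832 (0.656 to 1.06). Bche had a TPM of 7.81 and 7.54. Of 14 neuronal nicotinic and muscarinic receptors, 10 reached a TPM of 1, with a median log2 ratio of 0.14. Of the 10, 4 were more than 2-fold lower and 5 more than 2-fold higher, against 18.9% and 19.3% of all genes with such a TPM. Only Chrna4 and Chrnb2, its usual partner in the brain, reached a TPM of 10, both in the E14 teratoma alone. Chrna4 fell from 21.1 to 5.44 and Chrnb2 from 27.5 to 3.07. Chrna3, the subunit of autonomic ganglia, had 0.976 and 4.30 and did not reach the TPM limit. None of the 5 muscle receptor subunits reached it, and Chrnb1 had 3.34 and 7.24. Transmitters outside the 10 genes were read from 4 genes of glycine and histamine. Slc6a9, a glycine transporter of glia, fell from 30.2 to 6.46, Slc6a5, the glycine transporter of glycine neurons, had 1.61 and 1.08, and Hdc, which makes histamine, had 16.6 and 26.2.

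**Figure D4:**
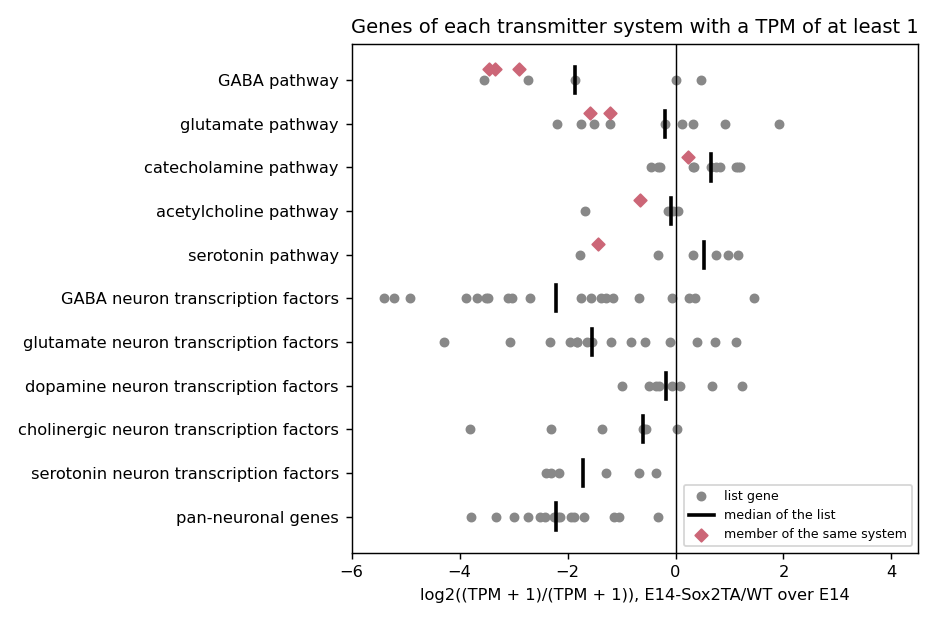
Log2 ratio of the E14-Sox2TA/WT over the E14 teratoma library after adding 1 to TPM, by list, for genes that reached a TPM of 1 in either library (grey points, with the median as a bar), and for the members of the same transmitter system (diamonds), 1 library per group. The GABA pathway and the pan-neuronal genes have medians of -1.86 and -2.21, the catecholamine and serotonin pathways of 0.65 and 0.53, and the GABA neuron transcription factors reach furthest to the left.

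Transcription factors listed for neurons of each transmitter, not all of them specific to such neurons, were counted in the same way. Among all genes at the TPM limit, 18.7% were lower and 10.8% higher. Of 20 factors of GABA neurons, 12 reached the limit, and all 12 were lower, with a median log2 ratio of -2.22 over the 20. The E14 teratoma alone reached the limit for 10 of the 12, as it did for all those called among the glutamate, cholinergic and serotonin factors, so these counts are no support for a direction. Nkx2-1, a factor of the ventral forebrain where many cortical interneurons arise, went from a TPM of 74.2 to 0.789, and Dlx1, a homeodomain factor of the same region, from 71.9 to 0.969. Of 18 factors of glutamate neurons, 2 reached the limit and both were lower. They were Neurog2, at 26.3 and 6.65, and Lhx2, at 50.2 and 1.63, and the median was -1.55 over 15 genes. Of 9 factors of dopamine neurons, 6 reached the limit, with 1 lower and 1 higher. Each of the called factors met the limit only through the library where it was higher, so these calls too support no direction. The median of the list was -0.18 and turned to 0.01 on FPKM. Nr4a2, which switches on Th in the midbrain, went from 11.6 to 5.32, 2.18-fold lower with an interval that reaches below 2 (1.95 to 2.44), and was not called on FPKM or with library totals. En2 went from 4.99 to 13.0, and Foxa2, which endoderm also expresses, had 35.3 and 57.2. Of 8 factors of cholinergic neurons 3 reached the limit and all were lower, namely Isl1, Lhx8 and Olig2, with Lhx8, a factor of forebrain cholinergic neurons, at 23.5 and 0.739. Of 6 factors of serotonin neurons 3 reached it and all were lower, namely Nkx2-2, Insm1 and Fev, which is restricted to serotonin neurons in the brain and went from 13.0 to 1.83, 7.11-fold lower (5.56 to 9.20).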

How the data were processed

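RNA-seq of 1 E14 and 1 E14-Sox2TA/WT teratoma library was analysed. The submitters' processing notes name bcl2fastq 2.20.0, Trimmomatic, HISAT2 2.1.0 and StringTie 2.1.3b, without stating their settings or whether strand was used, and they list mm10 and hg19; the table is on mm10. The authors deposited whole-number read counts per gene without normalization. The authors also deposited FPKM, reads per transcript length and library size. TPM, deposited beside it, is rescaled to about the same sum per library. Of 45777 gene identifiers, 45679 matched RefSeq on GRCm38.

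Ratios of TPM were computed with 95% Clopper-Pearson intervals of the reads, and levels with exact Poisson intervals. Calls used the study's limits, more than 2-fold where either library reached a TPM of 10, with the fold taken on TPM. List medians used genes that reached a TPM of 1, with a pseudocount of 1. A count of 0 was set to 3 reads for bounds. The 10 genes and the gene lists were chosen with earlier results of these data known. Named were the 10 genes, any gene of the 5 pathway lists, and in each other list the 3 genes of highest TPM and the 2 of largest log2 ratio in size. Gfi1b, Ins1, Ins2, Nefm, Slc6a5 and Sox2 fall outside this rule and were chosen after their values were seen. Scripts were tested on simulated data. Alternatives covered scaling, filter, fold, pseudocount and the pan-neuronal list. The work used scipy 1.17.1 under Python 3.11.15, and edgeR 4.0.16 under R 4.3.3 for TMM factors only. Some genes of the lists are counted but not reported here by name.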

Additional observations from a re-analysis of the deposited data

How the results depend on the processing

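No paired analysis was possible because each group holds a single library, and no library was left out for the same reason. Intervals cover counting error only, and Chat and Slc17a7 rest on the fewest reads. Of 307 alternative values for the counts, medians and balances, 243 stayed within counting error or within 1.5 times the count, 52 moved beyond it and 12 changed sign. The count of the 10 genes called lower was 5 under every scaling and fold tried. It was 7 on TPM with a limit of 1 or none, where Slc18a3 passed 2-fold on this scale only. With no limit 1 gene, Slc17a7, was called higher in place of 0. Call counts of the lists under the other scalings were added after seeing the data. Genes called higher went from 0 to 1 in the glutamate pathway under all 4 and in the catecholamine pathway on FPKM and library totals, where dopamine factors called lower went from 1 to 0.

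Medians below are log2 ratios with the reported value first, and except where the set of genes tested changed, the cause was not tested. For the 10 genes the median was -1.51, against -1.17 on FPKM, -1.71 with a pseudocount of 0.1, -2.90 with a TPM limit of 10 and -1.32 with no limit. The GABA pathway median was -1.86, against -1.61 on FPKM, -1.69 with library totals, -2.73 with a limit of 10 and -0.92 with no limit. On FPKM the sign changed for the glutamate pathway (-0.19 to 0.0072), the acetylcholine pathway (-0.09 to 0.034), the muscle receptors (-0.0093 to 0.058) and the dopamine factors (-0.18 to 0.011), while serotonin receptors went from -0.51 to -0.23, and the GABA, glutamate, cholinergic and serotonin factors stood at -1.84, -0.90, -0.33 and -1.37. With library totals the glutamate pathway stood at 0.011, acetylcholine at 0.055 and muscle receptors at 0.093, all with changed sign, and catecholamine stood at 0.86, serotonin at 0.74, glycine and histamine at 0.31, neuronal receptors at 0.49 and dopamine factors at -0.016. TMM and median-of-ratios factors gave -0.12 and -0.11 for the glutamate pathway, 0.028 and 0.031 for muscle receptors, with changed sign, -1.64 under both for glutamate factors, and -0.81 under both for cholinergic factors. A limit of 10 turned the serotonin pathway to -0.0050, glycine and histamine to -0.72 and neuronal receptors to -2.29, and gave 0.32 for catecholamine, -1.68 for acetylcholine, and -3.49, -3.06, -2.30 and -2.31 for GABA, glutamate, cholinergic and serotonin factors. No limit gave -0.19 for serotonin receptors, -1.01 for glutamate factors and -0.062 for dopamine factors. A pseudocount of 0.1 gave -1.23 for serotonin receptors and -2.66, -2.55, -1.23 and -1.91 for GABA, glutamate, cholinergic and serotonin factors. Relative to the pan-neuronal median it gave -1.38 for the GABA genes, 0.82 for glutamate, 1.63 for acetylcholine and 0.58 for serotonin. In reads not divided by length, the GABA to glutamate ratio of the E14 library was 3.32 in place of 3.71.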
